A study of Homo sapiens with 16 samples.

Results

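Apolipoproteins are the proteins that give lipoprotein particles their structure, carry them out of the liver and direct how plasma enzymes and receptors handle them. Liver cells make most of them: APOB is wrapped around triglyceride in the endoplasmic reticulum to form very low density lipoprotein, APOA1 and APOA2 build high density lipoprotein, and the smaller, exchangeable apolipoproteins move between particles. The 10 genes described here, APOB, APOA1, APOA2, APOM, APOA4, APOA5, APOC3, APOC1, APOE and APOH, were taken by gene name from a table of 58735 genes. All 10 were among the 18121 genes with enough counts to be tested.

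The cells were HepaRG, an established human liver line whose differentiated cells the labels call hepatocyte-like and cholangiocyte-like. Every group was kept in 2% DMSO, and in a growth medium with serum, insulin and the glucocorticoid triamcinolone acetonide, and was treated for 3 days. The control received 1% bovine serum albumin as vehicle. The second group received 30 nM formoterol, a beta-adrenergic agonist that raises cAMP, the third oleic acid at 0.5 mM together with palmitic acid at 0.25 mM, and the fourth formoterol and both fatty acids, called the combination below. The labels give the albumin vehicle for the control and do not say whether the other groups received it. Each group had 4 libraries, called independent replicates but not separate cultures, and p-values therefore cover no more than the spread among these libraries.

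Libraries held 32471299 to 65673126 counts, of which the 10 genes took 0.434% to 0.561% in control, 0.587% to 0.656% with formoterol, 0.723% to 0.955% with fatty acids and 0.535% to 0.856% in the combination. All 19 hepatocyte markers looked for were measured and summed to between 62138 and 80809 counts per 1000000 (CPM) in the control libraries. Of 12 cholangiocyte markers 8 were measured, summing to 169 to 174 CPM in control, and EPCAM was at 0 in every library. Of the macrophage markers 3 of 10 were measured, and VSIG4, C1QB and CD5L were at 0. For 10 enterocyte markers, looked for because APOB, APOA1 and APOA4 are also made in the intestine, 2 were measured (VIL1 and ALPI), summing to 5.91 to 19.5 CPM over all libraries. APOBEC1, the intestinal enzyme that edits APOB mRNA to its short form, was at 0 in every library.

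Combination replicate 2 stood apart. Its counts differed from those of the other combination libraries with a chi-square per degree of freedom of 76.0 to 106, against 6.62 to 30.7 for all other pairs within a group. Each of the 10 apolipoproteins was lower in it than the mean of the other 3 combination libraries, by 0.48 on the log2 scale for APOB, where the shortfall was smallest, and by 2.68 for APOC1, where it was largest. The mean log2 level of the 19 hepatocyte markers was 0.90 below the control mean in this library, while it was 0.61 to 0.71 above it in the other combination libraries. The groups share an estimate of the spread. For the 10 genes, the errors with fatty acids or formoterol against control were smaller without this library, though it is in neither comparison. This did not hold for every gene: the error of SIK3 with fatty acids was 0.0597 without it and 0.0577 with it. Counts of members and list genes past the test are therefore also given without combination replicate 2.

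Levels between genes were compared as CPM per kilobase (kb) of the gene length in the deposited table. In control, APOC3, an inhibitor of triglyceride clearance, stood highest at 427 ± 75.5 CPM per kb (SD, n = 4), followed by APOH at 389 ± 74.5. APOH, or beta-2-glycoprotein I, is a plasma protein that binds phospholipids. The ranges of these 2 genes overlapped. APOA1 (236 ± 24.2) and APOB (210 ± 33.5) came next with overlapping ranges, and APOE, the ligand that takes remnant particles into the liver, followed at 117, with libraries from 89.6 to 133, below the ranges of both. The gap between APOE and APOB depended on the length used. Per kb of the longest coding transcript APOE was at 212 ± 34.4 and APOB at 220 ± 35.2. APOA4 at 21.4 ± 1.61 and APOA5 at 19.1 ± 3.58 overlapped each other and lay well under APOE. The lowest were APOC1 at 2.62 ± 0.267, APOM at 1.32 ± 0.498 and APOA2 at 1.28 ± 0.448 CPM per kb, of which the last 2 overlapped.

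The order by mean was the same with fatty acids, with formoterol and in the combination, except that APOA2 then stood above APOM. Per kb of the longest coding transcript APOE stood above APOB with formoterol, at 427 against 258. On that scale APOA2 stood above APOM in control too, at 2.29 against 1.84. APOA2 and APOC1, both low, have short transcripts. Coding transcripts in the annotation run from 263 to 530 bases for APOA2 and from 213 to 689 for APOC1, and libraries were selected for fragments of 370 to 420 bases. Those of APOC3, which is not low, run from 359 to 604 bases. Whether fragment selection bears on these levels was not tested. APOA2 rests on 17 to 372 counts per library, APOM on 34 to 231 and APOC1 on 37 to 618, against 96306 to 232595 for APOB.

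The APOM gene (chromosome 6, 31652416 to 31658210, plus strand) overlaps BAG6 on the opposite strand, which had 54.5 times as many counts. The counting is not stated to use strand, so APOM values are uncertain. APOA1-AS, the antisense gene over APOA1, had a count ratio of only 0.000366 to APOA1. APOC1 has a near-identical pseudogene and its reads may have been split.

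Coordinates are of GRCh38 (GENCODE 29). Of the genes, 4 lie together on chromosome 11: APOA5 (116789367 to 116792420), APOA4 (116820700 to 116823306), APOC3 (116829706 to 116833072) and APOA1 (116835751 to 116837950), with APOC3 alone on the plus strand. APOE (44905754 to 44909393) and APOC1 (44914247 to 44919349) are neighbours on the plus strand of chromosome 19. APOB (21001429 to 21044073) is on chromosome 2, APOA2 (161222292 to 161223631) on chromosome 1 and APOH (66212033 to 66256525) on chromosome 17, each on the minus strand.

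Promoters of some of the genes are shown, as RefSeq gives them for GRCh38.p14: APOA4 and APOA5 from the chromosome 11 cluster, APOA2 with its response to formoterol, and APOH, whose ratio to albumin overlapped between the groups. These are not the genes with the most unlike patterns, and those of APOM, APOE and APOC1 are not shown. Each run is the 250 bases before an annotated start, read 5′ to 3′ on the gene's own strand. Capitals mark matches, on either strand, to the motifs listed after them.
APOA4 (chr11:116823305-116823554, minus strand): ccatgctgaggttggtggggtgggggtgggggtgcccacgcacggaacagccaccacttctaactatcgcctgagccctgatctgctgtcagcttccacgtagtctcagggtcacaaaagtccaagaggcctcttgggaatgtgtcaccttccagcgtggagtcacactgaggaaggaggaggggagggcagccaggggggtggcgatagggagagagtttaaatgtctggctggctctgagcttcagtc
APOA5 (chr11:116792421-116792670, minus strand): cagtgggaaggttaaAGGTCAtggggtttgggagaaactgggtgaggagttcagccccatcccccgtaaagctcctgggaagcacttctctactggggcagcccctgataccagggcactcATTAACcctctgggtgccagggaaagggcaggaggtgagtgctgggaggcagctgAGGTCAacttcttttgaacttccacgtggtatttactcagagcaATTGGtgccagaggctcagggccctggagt
APOA2 (chr1:161223629-161223878, minus strand): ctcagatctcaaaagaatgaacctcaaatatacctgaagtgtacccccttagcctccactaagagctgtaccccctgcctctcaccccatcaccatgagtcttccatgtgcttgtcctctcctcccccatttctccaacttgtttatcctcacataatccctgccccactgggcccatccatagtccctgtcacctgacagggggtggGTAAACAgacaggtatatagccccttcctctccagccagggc
APOH (chr17:66229416-66229665, minus strand): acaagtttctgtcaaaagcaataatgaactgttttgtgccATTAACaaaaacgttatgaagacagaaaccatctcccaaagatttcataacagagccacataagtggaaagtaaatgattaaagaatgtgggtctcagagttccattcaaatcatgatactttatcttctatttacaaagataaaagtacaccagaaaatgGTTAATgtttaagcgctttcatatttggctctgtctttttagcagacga

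The motifs searched on both strands were the nuclear receptor half-site AGGTCA (in 13.8% of 34796 promoter windows of 300 bases), its direct repeat with 1 base between (0.0172%), the cAMP response element TGACGTCA (1.84%) and its half-site TGACG (24.5%), the HNF1 half-site GTTAAT (6.91%), the forkhead site TGTTTAC (3.42%), the C/EBP site TTGCNNAA (10.5%), the TATA box TATAAA (11.6%) and the CCAAT box (34.6%). The half-site TGACG lies within the full cAMP element, and AGGTCA within the direct repeat. Positions count from the start site as 0. APOA5 had AGGTCA at -235 to -230 and at -74 to -69, GTTAAT on the opposite strand at -129 to -124 and CCAAT on the opposite strand at -30 to -26. A TATAAA from -1 to 4 runs past the printed bases. Another annotated APOA5 start (bases before it chr11:116791880-116792129), not printed, had AGGTCA at -156 to -151. APOA2 had the forkhead letters on the opposite strand at -42 to -36, and APOH had GTTAAT on the opposite strand at -210 to -205 and on its own strand at -49 to -44. None of the letters searched was found in the APOA4 window, which says nothing of the factors that bind there. A match is a description of letters, not a binding site. Promoter sequences of APOA1, APOC3 and APOB were not used here.

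**Figure D1:**
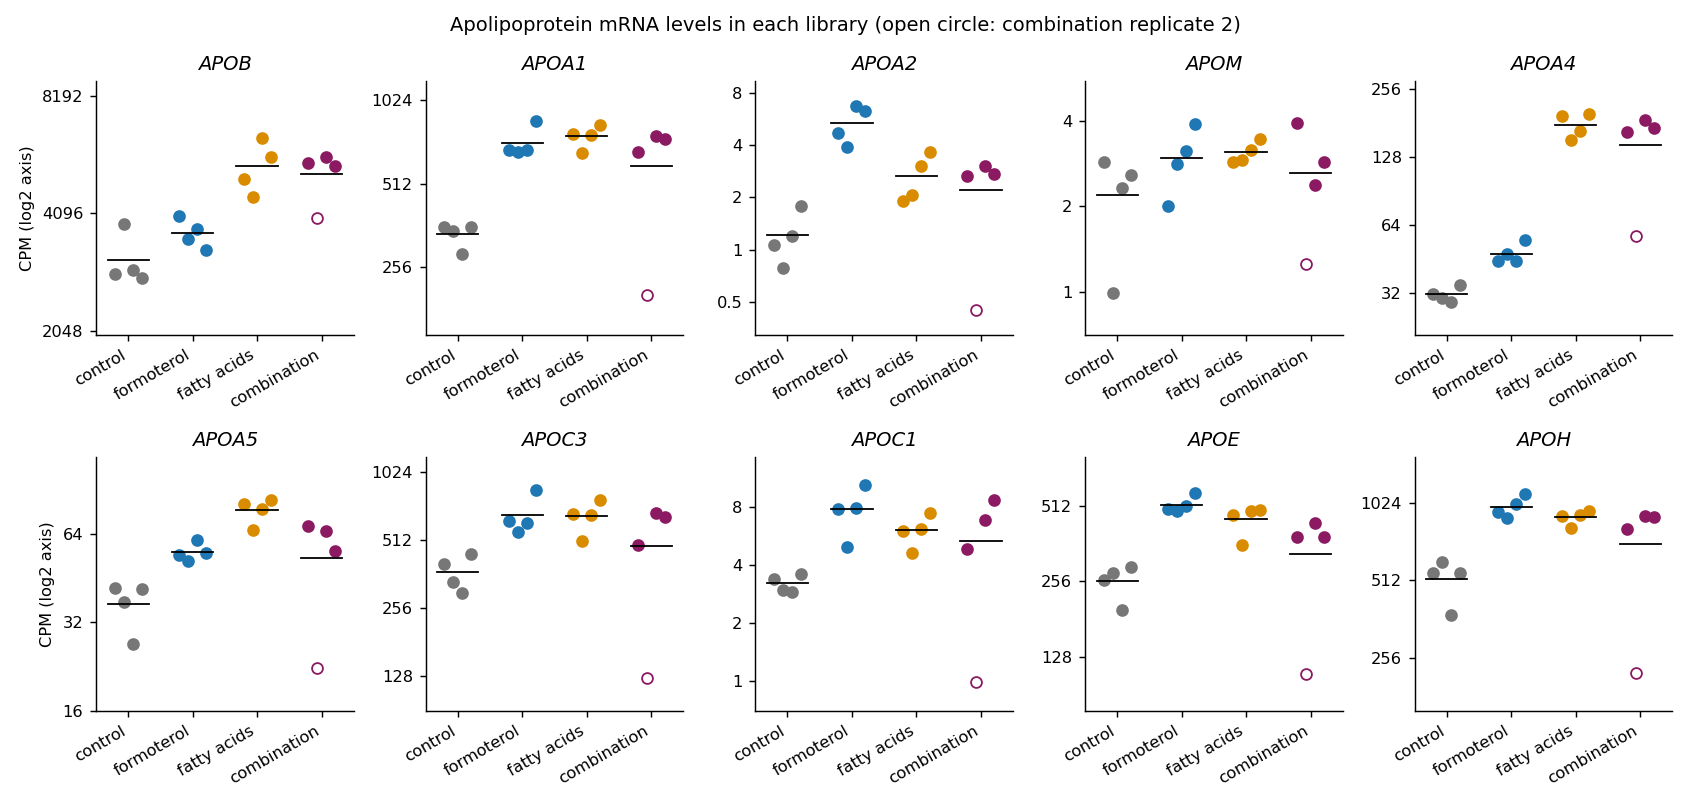
Level of each apolipoprotein mRNA in every library, as CPM on a log2 axis with its own scale for each gene. Points are libraries in replicate order, lines are group means, and the open circle is combination replicate 2, which was below the other 3 combination libraries for all 10 genes.

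The first comparison asks what a fatty acid load does to apolipoprotein mRNA. Fatty acids raised 6 of the 10 genes and lowered 0, against 8.93% of all genes tested that rose and 7.62% that fell. APOA4 rose 5.62-fold, APOA1 2.26-fold, APOA5 2.08-fold, APOE 1.77-fold, and APOB and APOH 1.74-fold each. All 10 genes were higher in every fatty acid library than in every control library, which held for 11.3% of genes. The median change was 0.87 on the log2 scale for the 10 genes. The median over all genes tested lay between -0.00217 and 0.0114 in every comparison below and in the interaction, except fatty acids against formoterol (0.0222). Tests were edgeR quasi-likelihood tests with Benjamini-Hochberg adjustment over all genes at 0.05, here and below. In bulk RNA, fewer cells of a type and less RNA per cell cannot be told apart.

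APOA4, a lipid-binding protein of triglyceride-rich particles and of high density lipoprotein, changed the most of the 10 genes. Its level was 31.9, 30.4, 29.3 and 34.7 CPM in control replicates 1 to 4 and 194, 151, 166 and 198 CPM with fatty acids. The groups lay far apart, and the lowest fatty acid library was above 4 times the highest control library. The edgeR log2 fold change was 2.49 ± 0.23 (SE; adjusted p = 9.74e-08), and leaving out any library in turn gave 2.43 to 2.56.

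APOB, which enters each very low density particle as a single molecule, was at 2860, 3850, 2929 and 2800 CPM in control and at 5015, 4503, 6384 and 5702 CPM with fatty acids. Control replicate 2 was the highest control and still under the lowest fatty acid library. The log2 fold change was 0.80 ± 0.12 (edgeR adjusted p = 5.34e-05).

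APOA1, the main protein of high density lipoprotein, stood at 357, 345, 285 and 356 CPM in control and at 777, 660, 771 and 834 CPM with fatty acids, with no overlap and a log2 fold change of 1.18 ± 0.24 (edgeR adjusted p = 0.00141). APOA2, the second protein of that particle, was at 1.07, 0.783, 1.20 and 1.79 CPM in control and at 1.90, 2.08, 3.02 and 3.64 CPM with fatty acids. Its log2 fold change of 1.13 ± 0.39 missed the threshold (edgeR adjusted p = 0.0514). APOM, a carrier of sphingosine 1-phosphate on high density lipoprotein, had 0.986 to 2.85 CPM in control and 2.87 to 3.44 with fatty acids, a log2 fold change of 0.50 ± 0.31 (edgeR adjusted p = 0.31). Of these 3 genes, then, only APOA1 passed the test.

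APOA5, an activator of lipoprotein lipase, was at 42.0, 37.6, 27.0 and 41.4 CPM in control and at 80.8, 65.9, 78.0 and 84.0 CPM with fatty acids, with a log2 fold change of 1.06 ± 0.21 (edgeR adjusted p = 0.00137). APOC3, which acts against it on that enzyme, had 298 to 444 CPM in control and 507 to 774 with fatty acids. Its log2 fold change was 0.82 ± 0.30 (edgeR adjusted p = 0.0663). APOC1, an inhibitor of cholesteryl ester transfer and of lipase, had 2.91 to 3.60 CPM in control and 4.63 to 7.43 with fatty acids, and its change of 0.91 ± 0.37 missed the threshold too (edgeR adjusted p = 0.101).

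APOE went from 196 to 291 CPM in control to 355 to 493 CPM with fatty acids (log2 fold change 0.82 ± 0.25, edgeR adjusted p = 0.0255), and APOH from 375 to 605 CPM to 816 to 957 CPM (0.80 ± 0.26, adjusted p = 0.0353). These 2 calls were the weakest. The APOE call was lost without control replicate 1 or 3 or fatty acid replicate 1, 3 or 4 (edgeR adjusted p up to 0.0874), and the APOH call without control replicate 1, 3 or 4 or any fatty acid replicate (up to 0.118).

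With combination replicate 2 left out, edgeR called 9 of the 10 genes higher with fatty acids, against 10.6% of all genes. APOA2 (adjusted p = 0.00239), APOC3 (3.53e-05) and APOC1 (0.00213) joined the 6, and APOM (0.206) did not. The fold changes barely moved, since that library is in neither group, and the errors shrank, for APOA1 from 0.24 to 0.08.

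**Figure D2:**
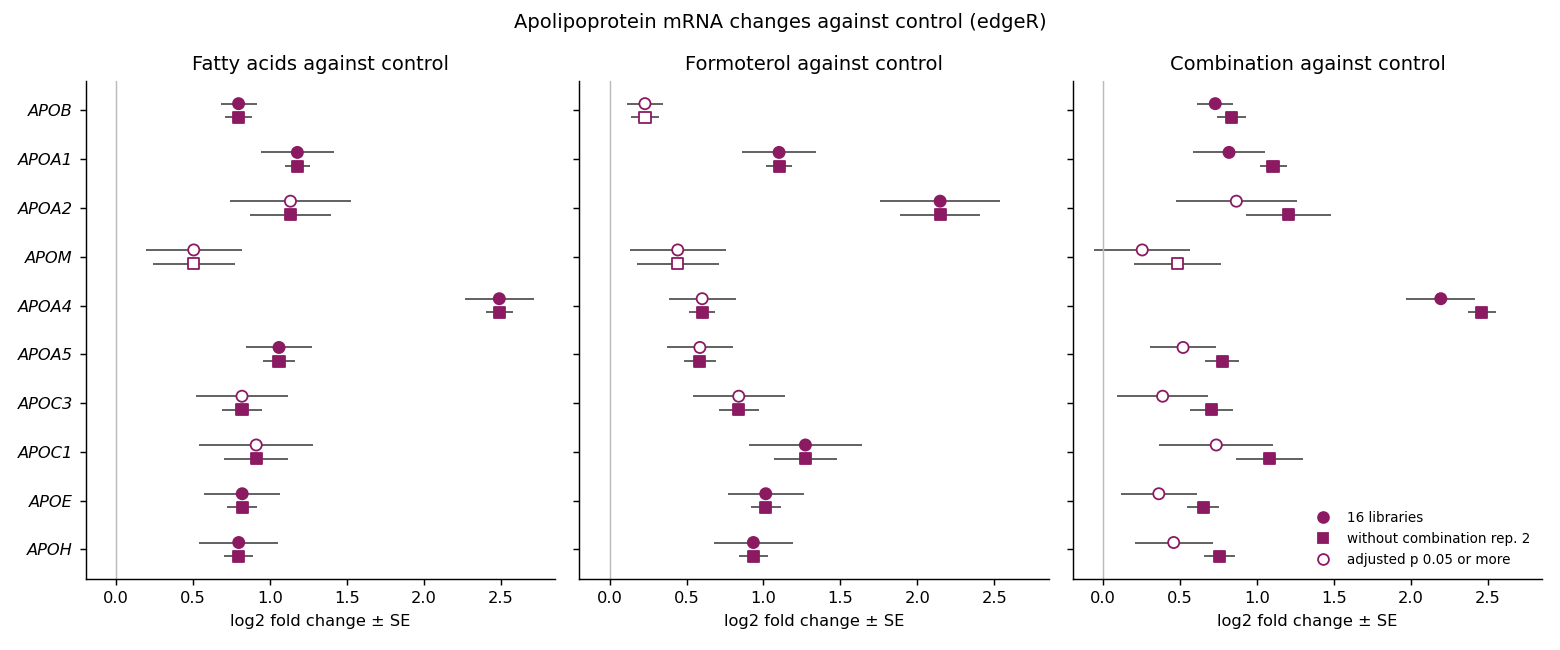
Log2 fold change ± SE of each apolipoprotein against control in edgeR, for fatty acids, formoterol and the combination. Circles are fits of 16 libraries and squares fits without combination replicate 2, filled where the adjusted p is under 0.05. APOA4 stands out at 2.49 with fatty acids and APOA2 at 2.15 with formoterol.

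The next comparison was of formoterol alone with control. Formoterol raised 5 of the 10 genes and lowered 0, against 5.76% of all genes that rose and 4.57% that fell. The genes that rose were APOA2, by 4.43-fold, APOC1 (2.42-fold), APOA1 (2.15-fold), APOE (2.02-fold) and APOH (1.91-fold). In 8 of 10 genes every formoterol library was above every control library, against 9.3% of genes; APOB and APOM overlapped with control. The median change was 0.89 on the log2 scale for the 10 genes.

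APOA2 was at 4.71, 3.91, 6.66 and 6.27 CPM with formoterol, above the highest control of 1.79 CPM in each library. The log2 fold change was 2.15 ± 0.39 (edgeR adjusted p = 0.00135), and it was 1.99 to 2.40 with any library left out. APOA1 was at 678, 667, 677 and 860 CPM with formoterol, all above control, with a log2 fold change of 1.10 ± 0.24 (edgeR adjusted p = 0.00495). APOM at 2.00 to 3.89 CPM overlapped with control (0.44 ± 0.31, edgeR adjusted p = 0.423). APOM was thus the one of these 3 high density lipoprotein genes that passed the test with neither treatment.

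APOE reached 489 to 572 CPM with formoterol (log2 fold change 1.01 ± 0.25, edgeR adjusted p = 0.0114) and APOH 892 to 1108 CPM (0.93 ± 0.26, adjusted p = 0.0224). APOC1 reached 4.95 to 10.4 CPM (1.27 ± 0.37, edgeR adjusted p = 0.03). The APOC1 call was lost without any 1 control replicate or without formoterol replicate 1, 3 or 4 (adjusted p up to 0.106), the APOE call without control replicate 3 (0.0534), and the APOH call without control replicate 3 or formoterol replicate 4 (up to 0.0905). Leaving out control replicate 3 took the count called among the 10 genes from 5 to 2. The count over all genes went from 1872 of 18121 to 1002 of 18542.

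APOA4 was at 44.3, 47.4, 44.4 and 55.1 CPM with formoterol, above each control library by a small margin (0.60 ± 0.22, edgeR adjusted p = 0.0851). APOA5 at 51.8 to 61.3 CPM (0.59 ± 0.21, adjusted p = 0.0847) and APOC3 at 554 to 858 CPM (0.84 ± 0.30, adjusted p = 0.0784) also lay above control without passing the test. APOB was at 4034, 3513, 3732 and 3306 CPM, and 3 of these 4 libraries were under the highest control. Its log2 fold change was 0.23 ± 0.12, with a 95% interval of -0.01 to 0.47 (edgeR adjusted p = 0.239). Leaving out combination replicate 2, 8 genes were called higher in edgeR, against 8% of all genes: APOA4 (adjusted p = 1.24e-05), APOA5 (0.000232) and APOC3 (4.42e-05) joined, while APOB (0.0908) and APOM (0.312) did not.

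The 2 treatments were compared with each other in the same fit, a comparison added after the values were seen. Fatty acids gave higher APOA4 than formoterol, by 1.89 ± 0.22 on the log2 scale (edgeR adjusted p = 2.37e-06), and higher APOB, by 0.57 ± 0.12 (adjusted p = 0.00152), with no overlap of libraries. Among all genes 8.94% were higher. APOA2 was lower with fatty acids than with formoterol in every library, with a log2 difference of -1.01 ± 0.37 (edgeR adjusted p = 0.0585). Without combination replicate 2, APOA5 was also higher with fatty acids (0.47 ± 0.10, edgeR adjusted p = 0.00118) and APOA2 lower (adjusted p = 0.00313), against 10.4% of genes higher and 11.2% lower. APOA1 differed by 0.08 ± 0.23, with an interval of -0.41 to 0.57, and APOC3 by -0.02 ± 0.30, with an interval of -0.64 to 0.60.

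Hepatocyte markers moved with the apolipoproteins. Of 19 markers without apolipoproteins, 10 rose and 1 fell with fatty acids (median log2 change 0.71), and 16 rose and 0 fell with formoterol (median 0.96). ASGR1, the hepatic asialoglycoprotein receptor, rose by 1.32 ± 0.21 with fatty acids (edgeR adjusted p = 0.000112) and by 1.08 ± 0.21 with formoterol (adjusted p = 0.00205). CPS1, a urea cycle enzyme, rose by 1.47 ± 0.07 with formoterol (edgeR adjusted p = 3.09e-11) and had a change of -0.17 ± 0.07 with fatty acids (adjusted p = 0.117). These counts without combination replicate 2 were 14 higher and 1 lower with fatty acids and 18 higher with formoterol. The summed CPM of the 19 markers was 62138 to 80809 in control, 130963 to 143457 with formoterol, 94021 to 103531 with fatty acids and 55228 to 124272 in the combination. The part of these markers in the apolipoprotein changes was not tested.

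Cholangiocyte markers summed to 324 to 378 CPM with fatty acids and 192 to 204 CPM with formoterol, and 4 of the 8 rose and 1 fell with fatty acids (5 and 1 with combination replicate 2 left out). KRT19 rose by 1.52 ± 0.08 (edgeR adjusted p = 1.3e-11), and CD24 went from 50.7 ± 2.40 CPM in control to 134 ± 9.01 with fatty acids. SOX9 went the other way, from 47.9 ± 3.38 CPM in control to 29.2 ± 2.30 with fatty acids. VIL1 and ALPI, the enterocyte markers measured, both rose with fatty acids (1.24 ± 0.21 and 1.47 ± 0.31, edgeR adjusted p = 0.000269 and 0.00193), while 7 of the other 8 were too low to test and APOBEC1 was at 0. Of 12 proliferation genes 12 rose with fatty acids and 4 with formoterol, and 12 and 6 rose with that library left out.

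As a description added after the values were seen, each apolipoprotein was set against albumin (ALB), the main secreted protein of hepatocytes, in the same library. APOA4 had 1.83, 1.53, 2.52 and 2.04 counts per 1000 ALB counts in control and 1.42, 1.55, 1.39 and 1.74 with formoterol. It had 6.37, 5.49, 5.32 and 6.46 with fatty acids and 6.67, 5.82, 6.95 and 6.66 in the combination. On this scale combination replicate 2 lay with the fatty acid libraries, and every library with fatty acids was above every library without them.

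APOA2 had 0.0394 to 0.105 counts per 1000 ALB counts in control, 0.128 to 0.209 with formoterol, 0.0623 to 0.119 with fatty acids and 0.0462 to 0.113 in the combination, so formoterol alone stood above the rest. APOB had 164 to 252 in control, 104 to 129 with formoterol, 163 to 204 with fatty acids and 211 to 405 in the combination, with formoterol alone below all others. APOA5 had 1.69 to 1.92 with formoterol against 1.89 to 2.43 in control, and 2.39 to 2.74 with fatty acids.

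For APOE, APOH, APOC3 and APOC1 the ranges per 1000 ALB counts overlapped between control and each treatment. APOH, for example, had 30.4 to 32.3 in control, 29.2 to 35.0 with formoterol and 29.5 to 31.3 with fatty acids, although its CPM rose with both. APOA1 had 17.3 to 24.5 in control and 23.9 to 27.3 with fatty acids.

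The mean log2 level of the 19 hepatocyte markers gave a second such reference. Relative to it, APOA4 with fatty acids was 1.75 to 1.98 above the control mean and 1.76 to 1.85 above it in the combination, replicate 2 included. APOA2 with formoterol was 0.82 to 1.49 above the control mean, and APOB with formoterol was between -0.96 and -0.57. APOA4 with formoterol was between -0.49 and -0.26 and APOA5 between -0.47 and -0.23, below their control ranges of -0.21 to 0.24 and -0.12 to 0.13. Their CPM with formoterol was above that of every control library. APOA1 with fatty acids was 0.54 to 0.60 and APOA5 0.41 to 0.50 above the control mean, and APOH with fatty acids was 0.18 to 0.23 above it, while its ALB ratio overlapped with control.

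**Figure D3:**
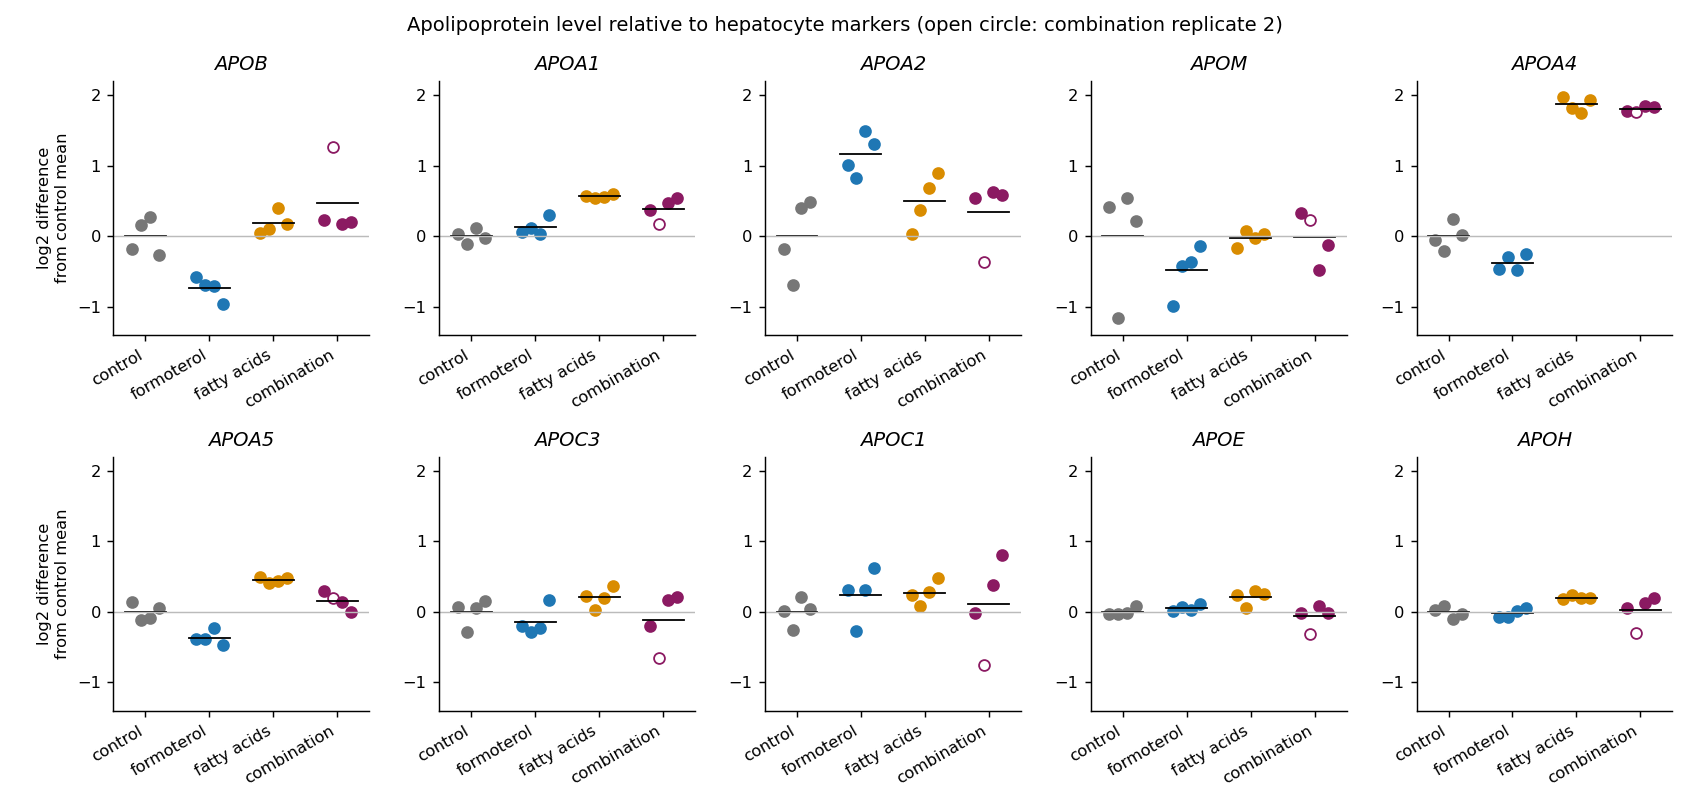
Log2 level of each apolipoprotein less the mean log2 level of 19 hepatocyte markers in the same library, as the difference from the control mean. Points are libraries, lines group means, and the open circle combination replicate 2. APOA4 with fatty acids and in the combination lies between 1.75 and 1.98, and APOB with formoterol between -0.96 and -0.57.

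The third question was what formoterol adds to fatty acids. No apolipoprotein passed the edgeR test in this comparison, against 1.68% of all genes higher and 1.12% lower in the combination. DESeq2 also called 0. Without a filter on low counts, where 34637 genes were tested, edgeR called 6 of the 10, all lower in the combination, against 2.54% of all genes (higher and lower together). In that fit the edgeR adjusted p was 5.28e-08 for APOE and 3.19e-07 for APOC3, against 0.421 and 0.566 with the filter. The log2 difference of APOE stayed between -0.51 and -0.45 under these settings. These calls thus came with smaller errors, not larger differences, and the cause was not tested. With the filter 1 gene, APOA5, had an unadjusted edgeR p under 0.05. Its log2 difference was -0.54 ± 0.21 (edgeR adjusted p = 0.212), and the other 9 lay between -0.46 and -0.07. The count was again 0 without combination replicate 2, against 3.19% of all genes, and APOA5 was then at -0.29 ± 0.11 (adjusted p = 0.197). APOA4 then differed by -0.03 ± 0.09 and APOA1 by -0.07 ± 0.09. The 4-library intervals were wide, -0.85 to 0.13 for APOA1 and -1.05 to 0.51 for APOA2, so smaller differences were not detectable.

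In the combination APOA4 was at 164, 57.2, 185 and 171 CPM, APOA1 at 664, 203, 759 and 743 CPM, APOB at 5499, 3982, 5701 and 5425 CPM and APOA2 at 2.66, 0.454, 3.02 and 2.73 CPM. Replicate 2 was the lowest library for all 4 genes, and the other 3 libraries lay within the range with fatty acids alone.

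Against formoterol alone, the combination had higher APOA4, by 1.59 ± 0.22 (edgeR adjusted p = 3.27e-05), and higher APOB, by 0.50 ± 0.12 (adjusted p = 0.00467), while APOA2 was lower by a log2 difference of -1.28 ± 0.37 (adjusted p = 0.0184). Among all genes 9.48% were higher and 8.97% lower. The APOA2 call was lost without formoterol replicate 3 or 4 (edgeR adjusted p up to 0.0552). Without combination replicate 2 the same 3 genes passed and APOE was lower too, at -0.36 ± 0.10 (adjusted p = 0.0188), against 7.17% of genes higher and 7.41% lower.

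The combination against control raised APOA4 by 2.19 ± 0.22 (edgeR adjusted p = 5.21e-07), APOA1 by 0.82 ± 0.24 (adjusted p = 0.0226) and APOB by 0.73 ± 0.12 (adjusted p = 0.00014), 3 of 10 genes against 7.58% of genes that rose and 6.68% that fell. The APOA1 call was lost without control replicate 3 or combination replicate 1, 3 or 4 (edgeR adjusted p up to 0.0823). When combination replicate 2 was left out 9 genes rose, all but APOM, against 8.51% of genes. APOC3 then had a log2 fold change of 0.70 ± 0.14 (edgeR adjusted p = 0.000568) in place of 0.39 ± 0.30 (0.467), and APOE one of 0.65 ± 0.10 (4.46e-05) in place of 0.36 ± 0.25 (0.395).

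The interaction asks whether the effect of formoterol differed with fatty acids present, as the change from fatty acids to the combination less the change from control to formoterol. It was below 0 for all 10 genes and passed the edgeR test for 5, against 3.38% of genes lower and 2.12% higher. Among those that passed, APOA2 had the lowest value, -2.42 ± 0.54 (edgeR adjusted p = 0.0127), followed by APOE at -1.47 ± 0.35 (0.0176), APOA1 at -1.46 ± 0.33 (0.0146), APOH at -1.27 ± 0.36 (0.0409) and APOA5 at -1.13 ± 0.30 (0.03). The value of APOC1, -1.45 ± 0.51, missed the threshold (edgeR adjusted p = 0.104). The sum of the separate log2 changes for APOA1 was 2.28, and the combination reached 0.82 with replicate 2 and 1.10 without it.

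Without combination replicate 2 the interaction was smaller in size and had smaller errors. Then 8 of 10 genes passed, against 3.6% of genes lower, with APOA2 at -2.08 ± 0.37 (edgeR adjusted p = 0.000701), APOA1 at -1.18 ± 0.12 (1.35e-06) and APOA4 at -0.63 ± 0.12 (0.00149). APOB at -0.19 ± 0.13 (0.493) and APOM at -0.46 ± 0.39 (0.599) did not pass. With all libraries the APOA5 call was lost without control replicate 3, formoterol replicate 1, 3 or 4 or fatty acid replicate 1, 3 or 4 (edgeR adjusted p up to 0.0758), the APOE call without control replicate 3 (0.0504), and the APOH call without any 1 of 11 libraries (up to 0.0997): control 1, 3 and 4, formoterol 1, 3 and 4, fatty acids 1 to 4 and combination 1. Without control replicate 3 the count among the 10 genes fell from 5 to 2, and that over all genes from 997 of 18121 to 444 of 18542. Of the 19 hepatocyte markers 13 had a lower interaction and 0 a higher one with all libraries, and 16 and 0 without combination replicate 2.

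**Figure D4:**
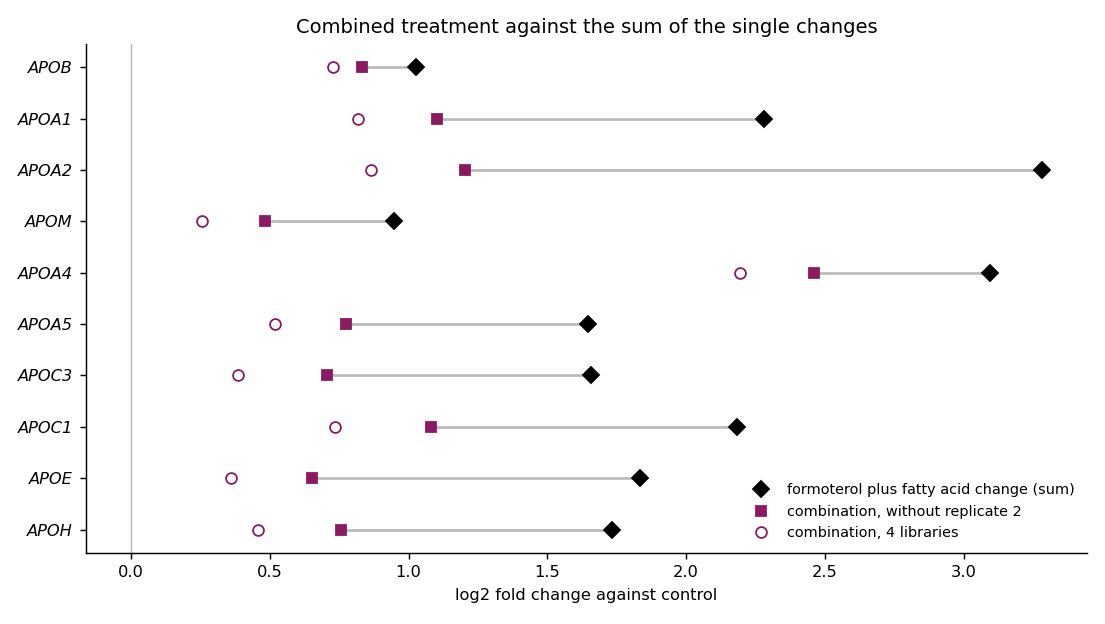
Log2 fold change of the combination against control beside the sum of the separate changes with formoterol and with fatty acids, for each apolipoprotein. Diamonds are sums, squares the combination without replicate 2, and open circles the combination with 4 libraries. Every combination value lies left of its sum, by 0.19 for APOB without replicate 2 and by 2.08 for APOA2.

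Across the 16 libraries, likeness between genes was measured as the root mean square difference of log2 CPM after subtracting each gene's mean, over 11555 protein-coding genes. The values are descriptions, since all genes share the same libraries, and combination replicate 2 weighs on all of them. Within the 10 genes the closest pair was APOE and APOH (0.103) and the farthest APOA2 and APOA4 (1.27). The genes most like APOH were ADH1C (0.0890), HPX (0.108) and C4BPA (0.109), and among those most like APOE were AMBP (0.122) and CYP4F2 (0.124). APOA1 was most like CYP2E1 (0.108), GC (0.118) and ASGR1 (0.145). Among the genes most like APOB were FRY (0.139) and TP53INP1 (0.166). For APOA4 the nearest gene was farther off, VNN1 at 0.314, then SLC16A13 (0.352) and INHBC (0.372). For APOA2 the nearest were TMEM176A (0.460) and KLB (0.501).

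The clustered genes were set beside the other protein-coding genes within 100 kb of each cluster's ends. On chromosome 11 APOA5, APOA4 and APOA1 rose with fatty acids, and APOC3 did not pass the test (edgeR adjusted p = 0.0663). BUD13 (0.18 ± 0.12, edgeR adjusted p = 0.336) and ZPR1 (-0.13 ± 0.07, adjusted p = 0.188) on one side did not pass the test, and SIK3 on the other fell by 0.22 (adjusted p = 0.013). With formoterol none of these 3 neighbours passed (edgeR adjusted p from 0.391 to 0.92), and of the 4 apolipoproteins APOA1 alone did (adjusted p = 0.0851 for APOA4, 0.0847 for APOA5 and 0.0784 for APOC3). Without combination replicate 2 all 4 rose with formoterol (edgeR adjusted p from 6.93e-10 for APOA1 to 0.000232 for APOA5), and the 3 neighbours again did not pass. APOC3 then rose with fatty acids too (edgeR adjusted p = 3.53e-05). On chromosome 19 APOE rose with both treatments and APOC1 with formoterol. Next to them BCAM rose with fatty acids by 0.39 ± 0.11 (edgeR adjusted p = 0.0205) and CLPTM1 with formoterol by 0.18 ± 0.06 (adjusted p = 0.0414), and NECTIN2, TOMM40 and RELB passed with neither. Leaving out combination replicate 2, NECTIN2 also rose with formoterol, by 0.22 ± 0.07 (edgeR adjusted p = 0.0356, against 0.0503 with all libraries). APOC1 then rose with fatty acids as well (edgeR adjusted p = 0.00213). The lipase activator APOC2 and its neighbour APOC4, which lie just beyond APOC1, had 6 and 0 counts over all 16 libraries, and a read-through gene of both had 5.

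**Figure D5:**
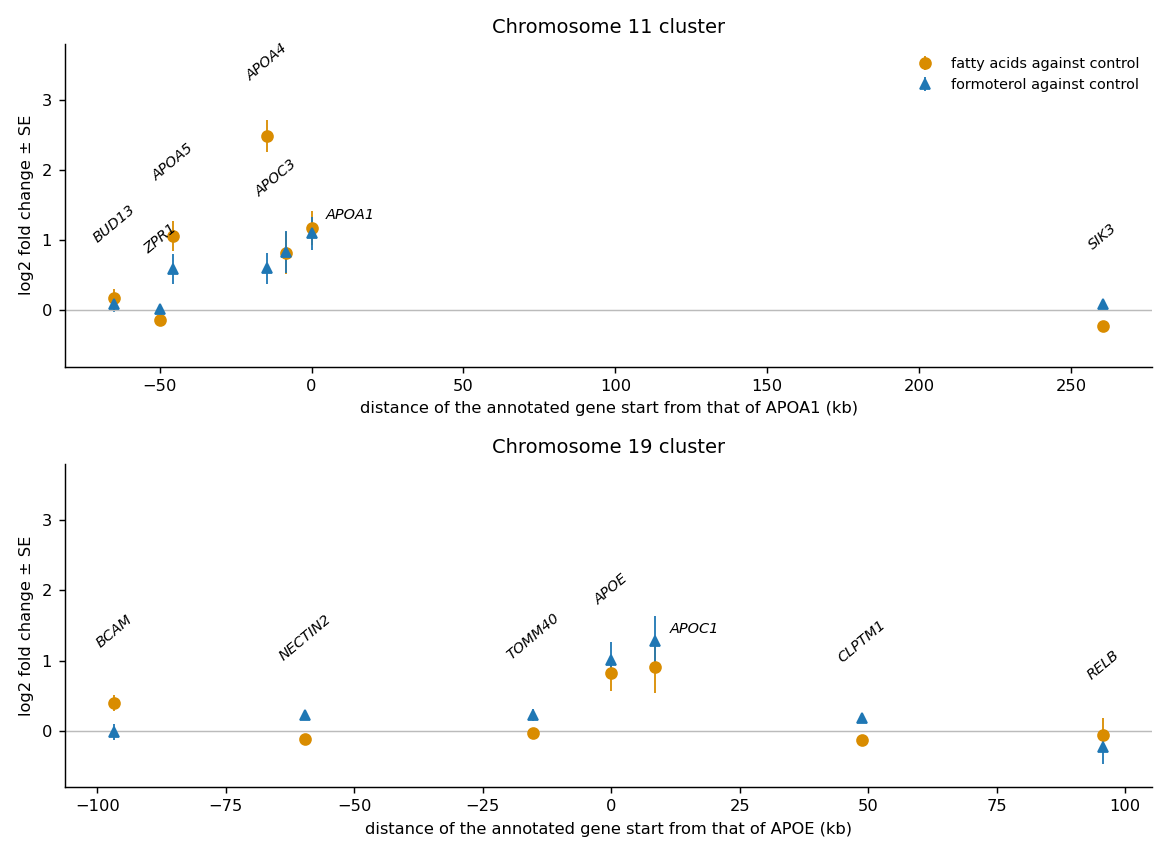
Log2 fold change ± SE against control of the measured protein-coding genes in and around the chromosome 11 and chromosome 19 clusters, by distance of the annotated gene start from that of APOA1 or APOE in kb. Circles are fatty acids and triangles formoterol. The apolipoproteins lie between 0.59 and 2.49, and the neighbours between -0.24 and 0.39.

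Other genes of the pathway were read from lists. Among 7 measured of 12 other apolipoprotein genes, 4 rose and 0 fell with fatty acids (median log2 change 0.31), and 0 rose and 1 fell with formoterol (median -0.03). Leaving out combination replicate 2, 5 rose and 0 fell with fatty acids, and 1 rose and 1 fell with formoterol. The secreted trypanosome lytic factor APOL1 rose by 0.31 ± 0.05 with fatty acids (edgeR adjusted p = 0.000223) and APOL6 by 0.42 ± 0.07 (adjusted p = 0.000248). APOL3 rose by 0.39 ± 0.13 with fatty acids (edgeR adjusted p = 0.0443) and fell by 0.81 with formoterol (adjusted p = 0.000687). CLU, or apolipoprotein J, chosen for mention after its values were seen, was at 4069 ± 281 CPM in control and passed the test with neither treatment (0.03 ± 0.10 and 0.15 ± 0.10, edgeR adjusted p = 0.87 and 0.384).

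Of 13 measured genes of lipoprotein assembly and secretion, 5 rose and 0 fell with fatty acids (median 0.10), and 8 rose and 1 fell with formoterol (median 0.31). With that library left out, 5 rose and 0 fell with fatty acids, and 10 rose and 1 fell with formoterol. MTTP, which loads lipid onto APOB, was at 101 ± 20.6 CPM in control, 181 ± 12.9 with fatty acids and 178 ± 3.94 with formoterol. It rose by 0.84 ± 0.19 with fatty acids (edgeR adjusted p = 0.00331) and by 0.82 ± 0.19 with formoterol (adjusted p = 0.00763), and its interaction was -1.18 ± 0.27 (adjusted p = 0.0135). MTTP thus rose with formoterol, where APOB did not pass the test. MIA2, a cargo receptor for large particles, rose by 0.49 ± 0.11 with fatty acids (edgeR adjusted p = 0.00263). SURF4, an export receptor for lipoproteins, rose by 0.31 ± 0.06 (adjusted p = 0.00239) and SORT1, a sorting receptor, fell by 0.33 (adjusted p = 0.00135) with formoterol.

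Lipoprotein receptors and their regulators were measured for 10 of 11 genes, of which 3 rose and 1 fell with fatty acids and 4 rose and 2 fell with formoterol. In the fit without combination replicate 2, 11 were measured, 4 rose and 1 fell with fatty acids, and 4 rose and 2 fell with formoterol. MYLIP, which marks the LDL receptor for degradation, fell by 0.72 with fatty acids (edgeR adjusted p = 1.87e-05). SCARB1, the receptor for high density lipoprotein, rose by 0.33 ± 0.08 with fatty acids (edgeR adjusted p = 0.00493) and by 0.45 ± 0.08 with formoterol (adjusted p = 0.000825). SDC1, a proteoglycan that binds remnants, rose by 0.56 ± 0.06 with formoterol (adjusted p = 6.49e-06).

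Of 11 measured genes of lipoprotein remodelling in plasma, 4 rose and 2 fell with fatty acids (median 0.58), and 5 rose and 1 fell with formoterol (median 0.51). With combination replicate 2 left out, 7 rose and 2 fell with fatty acids, and 5 rose and 1 fell with formoterol. ANGPTL4, an inhibitor of lipoprotein lipase, rose by 2.76 ± 0.14 with fatty acids (edgeR adjusted p = 1.14e-11) and by 0.77 ± 0.14 with formoterol (adjusted p = 0.00163). LPL, the lipase itself, fell by 0.25 with fatty acids (adjusted p = 0.0129) and was lower in the combination than with fatty acids, by a log2 difference of -0.43 ± 0.07 (adjusted p = 0.000545).

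Among 23 measured transcription and editing factors of apolipoprotein genes, 10 rose and 3 fell with fatty acids and 9 rose and 1 fell with formoterol, with a median of 0.23 in both. Leaving out combination replicate 2, 12 rose and 3 fell with fatty acids, and 10 rose and 1 fell with formoterol. CREB3L3, a liver factor that activates apolipoprotein genes, rose by 1.23 ± 0.13 with fatty acids (edgeR adjusted p = 4.94e-07) and by 0.67 ± 0.13 with formoterol (adjusted p = 0.00174). HNF4A, a nuclear receptor that maintains hepatocyte genes, was at 95.3 ± 4.14 CPM in control, 163 ± 11.2 with formoterol and 122 ± 8.68 with fatty acids. It rose by 0.77 ± 0.13 with formoterol (edgeR adjusted p = 0.000781), had a change of 0.36 ± 0.13 with fatty acids (adjusted p = 0.0666) and an interaction of -0.76 ± 0.18 (adjusted p = 0.0206). NR1H4, the bile acid receptor, rose by 0.81 ± 0.15 with formoterol (edgeR adjusted p = 0.00141). The coactivator PPARGC1A fell by 0.76 with fatty acids (adjusted p = 1.03e-07). PPARA, the fatty acid receptor of hepatocytes, passed with neither (0.15 ± 0.10 and 0.18 ± 0.10, edgeR adjusted p = 0.363 and 0.294).

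Of 14 measured PPAR-responsive genes without apolipoproteins, 12 rose and 0 fell with fatty acids (median 1.17), and 5 rose and 1 fell with formoterol (median 0.24). Without combination replicate 2, 12 rose and 0 fell with fatty acids, and 9 rose and 1 fell with formoterol. PDK4, which restrains pyruvate oxidation, rose by 1.75 ± 0.07 with fatty acids (edgeR adjusted p = 8.65e-14). PLIN2, the lipid droplet coat protein, rose by 1.15 ± 0.06 with fatty acids (edgeR adjusted p = 6.08e-12) and fell by 0.67 with formoterol (adjusted p = 1.96e-07). When formoterol was added to fatty acids, 0 of these 14 passed the test, against 1.68% of all genes higher and 1.12% lower. With combination replicate 2 left out 1 rose, against 3.19% of all genes called.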

How the data were processed

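Poly-A RNA of 16 HepaRG libraries was sequenced, and the authors deposited whole-number gene counts. Tools named by the submitters' processing notes were DESeq2 and HISAT2 2.0.5, with mouse build mm39, but 58735 of 58735 gene IDs are human and 58724 have the coordinates of GENCODE 29, so the counts were read as human. The counting program and its use of strand were not given in the sources used here. Genes were kept by edgeR's filterByExpr (18121 genes, at least 99.9% of the counts of each library), scaled with TMM factors and tested with edgeR 4.0.16 quasi-likelihood tests on 4 group means, in R 4.3.3, with Benjamini-Hochberg adjustment over all genes at 0.05. The fit had 12 residual and 8.93 prior degrees of freedom, and log2 CPM used a prior count of 2. Alternatives were other scaling and filters, DESeq2 1.42.0, the replicate number as a block, 2 groups only, and each library left out. The comparison of fatty acids with formoterol and the ratios to ALB and to hepatocyte markers were added later. The fit was tested on simulated data. Named genes are the 10 members, up to 2 genes per list with the smallest p past the threshold, HNF4A, CREB3L3, PPARA and MTTP, cluster neighbours, and the 3 genes most like each member called in at least 2 of 5 pairwise comparisons, with at least 2 CPM; some of these are not reported here. The members and lists were chosen with earlier results of these data known. Promoters are from RefSeq. Intervals are 95%. Figures used Python 3.11.15 and matplotlib 3.10.9.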

Additional observations from a re-analysis of the deposited data

Results flagged for a closer look

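Each of the 10 genes was checked in each of the 4 groups for a library far from the others (gap to the nearest over the whole range above Dixon's 95% critical value). Of 40 groups 9 had one. Chance flags about 1 in 20 of independent checks, but the 10 genes were measured in the same 16 libraries. The 9 of 40 can therefore not be set against that rate. In 5 of the 9 groups the library was combination replicate 2, the lowest for APOB (3982 CPM), APOA2 (0.454 CPM), APOA4 (57.2 CPM), APOE (109 CPM) and APOH (223 CPM). The other libraries that stood apart were control replicate 2 for APOB (3850 CPM, highest), control replicate 3 for APOA1 (285 CPM, lowest), formoterol replicate 4 for APOA1 (860 CPM, highest) and fatty acid replicate 2 for APOE (355 CPM, lowest).

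The effect of formoterol differed with fatty acids present, by the edgeR test of the difference, for 5 of the 10 genes. Among all genes 3.38% were lower and 2.12% higher in this test. The log2 difference was -1.46 for APOA1, -2.42 for APOA2, -1.13 for APOA5, -1.47 for APOE and -1.27 for APOH. Without combination replicate 2 these were -1.18, -2.08, -0.87, -1.18 and -0.98. Then 8 of the 10 genes passed, against 3.6% of all genes lower.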

How the results depend on the processing

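No called log2 fold change of the 10 genes turned sign under the alternatives run. Of all values under them, 1312 kept their side of the threshold, 66 gained it and 52 lost it. Without a filter on low counts, members called were 9 for formoterol, 6 for the combination against fatty acids, 8 against formoterol, 9 against control and 9 for the interaction, and genes called were 880 for the combination against fatty acids and 1523 for the interaction. These are of 34637 genes tested, of which 6.5%, 2.54%, 9.94%, 7.69% and 4.4% were called in those 5 comparisons. With the filter the shares were 10.3%, 2.8%, 18.4%, 14.3% and 5.5%. For APOE in the combination against fatty acids, the edgeR adjusted p was 5.28e-08 without the filter and 0.421 with it. Its log2 difference hardly moved, and the cause of these changes was not tested. For fatty acids against control, 9 members were called without the filter in place of 6, against 8.83% of all genes in place of 16.5%. The count was also 9 with the replicate block (17.2% of all genes) and with only the 2 groups compared (19.6%). It was 7 with total counts only (14.9%) and 5 with DESeq2 (18.6%). DESeq2 called 795 genes for the combination against fatty acids. With only the 2 groups compared, and so fewer libraries in the fit, 8 members were called for formoterol, against 13% of all genes. For the combination against fatty acids 275 genes (1.61%) were then called. The APOE, APOH (fatty acids) and APOH (interaction) calls were lost with DESeq2 (adjusted p = 0.0511, 0.0705 and 0.0601). Those of APOA1 (combination against control) and APOA2 (combination against formoterol) were lost in edgeR with only the 2 groups compared (adjusted p = 0.0956 and 0.0547). APOA2 with fatty acids was called under 5 of the 8 settings that kept every library of the groups compared.

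Replicate numbers did not pair the libraries (correlations of same-numbered deviations from -0.113 to 0.0825). With the replicate block 8 members passed for the interaction in place of 5, against 6.01% of all genes in place of 5.5%.

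With each library left out in turn, genes called ranged from 2276 to 3587 for fatty acids (members 4 to 9), 1002 to 2588 for formoterol (2 to 8), 302 to 590 for the combination against fatty acids (0 to 0), 2479 to 3399 against formoterol (2 to 4), 1975 to 2811 against control (2 to 9) and 444 to 1325 for the interaction (2 to 8). The lowest counts for formoterol and the interaction came without control replicate 3. Scaling to total counts only moved the median of all genes by -0.133 for formoterol, 0.134 for the combination against formoterol and 0.157 for the interaction. Depth limits APOA2, APOM and APOC1, which had as few as 17, 34 and 37 counts.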
